A study of Mus musculus with 4 samples.

Results

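Uncommitted TEC progenitor-like cells made up 980 of the 28055 cells kept from droplet-based scRNA-seq of sorted EpCAM+ thymus cells, meant to hold thymic epithelial cells (TECs), in 4 conditions, a method in which each captured mRNA molecule carries the barcode of its cell and a unique molecular identifier (UMI). They were chosen by their own counts. Among cells that passed a minimum of 200 genes and a limit of 25% on mitochondrial UMIs, a cell was a member when at least 3 of the 6 genes Ackr4, Dcn, Serpinf1, Prelp, Gpm6b and Gas1 and also Epcam had a UMI, when Prss16 and Psmb11 together held fewer than 10 and Ccl21a fewer than 50 of 10000 UMIs, and when 5 T cell genes held at most 2 UMIs. The name describes a proposed identity, since what these cells give rise to was not measured. The members held 116 cells in WT-Control, 414 in WT-RANKL Ab, 256 in CD40KO-Control and 194 in CD40KO-RANKL Ab.

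TECs of the thymic cortex (cTECs) express Psmb11 and Prss16 and select thymocytes that recognise self MHC, whereas TECs of the medulla (mTECs) attract these thymocytes with the chemokine CCL21 and, once mature, present tissue antigens under the control of AIRE. Maturation of mTECs depends on the TNF receptor family members RANK, encoded by Tnfrsf11a, and CD40. Progenitors with the potential for both lineages have been proposed to persist in the adult thymus, and podoplanin (Pdpn) is among their proposed surface markers.

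Cells were sorted as EpCAM+CD45-TER119- from the thymus of C57BL/6 mice at 6 weeks of age, which were wild-type (WT) or constitutively Cd40-/- (CD40KO). At 4 weeks of age the mice had received 5 mg/kg of a RANKL-neutralizing antibody (RANKL Ab) or of control rat IgG under the skin. Each condition was a single library from a pool of 3 mice, so there was no replicate, no test between conditions was possible, and every interval below covers counting error alone at the 95% level. Constitutive loss of CD40 also affects cells other than TECs and precedes the antibody by the whole life of the mouse.

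The libraries held 2082 to 10218 kept cells with medians of 6086 to 7621.5 UMIs per cell. Cd40 stood at 110.0 UMIs per 1000000 (CPM) over all cells of WT-Control and at 28.8 in WT-RANKL Ab, against 5.75 in CD40KO-Control and 4.75 in CD40KO-RANKL Ab, and whether the counted 3' end lies inside the deleted part was not tested. The CD40KO libraries shared 205 kept barcodes, of which 194 had more UMIs in CD40KO-RANKL Ab, with medians of 24073 there and 723 in CD40KO-Control. Only 1 of 256 members of CD40KO-Control and 9 of 194 of CD40KO-RANKL Ab sat on such a barcode, and results are given without them where they moved. Of the ribosomal protein genes, Rpl36 stood at 2202, 584, 461 and 1390 CPM in members, in the order WT-Control, WT-RANKL Ab, CD40KO-Control and CD40KO-RANKL Ab that is kept below, and at 1742, 487, 455 and 1156 CPM over all cells. For Rpl36 the order of the libraries was the same in both, the cause was not tested, and such counts are uncertain because near-identical copies can share reads.

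Of the 6 genes that chose the members, Ackr4 is a scavenging receptor for CCL19, CCL21 and CCL25, Dcn and Prelp are small proteoglycans of the extracellular matrix, Serpinf1 is a secreted serpin also known as PEDF, Gpm6b is a membrane glycoprotein and Gas1 is a co-receptor of Hedgehog. In GRCm38 they lie at chr9:104084157-104126933, chr10:97479609-97518143, chr1:133910304-133921414, chr11:75409769-75422701, chrX:166238911-166388988 and chr13:60174405-60177365 for Ackr4, Dcn, Prelp, Serpinf1, Gpm6b and Gas1. All 6 genes were seen together in 40.5, 40.6, 23.4 and 47.9% of the members, whereas 11.2, 9.42, 20.7 and 4.12% held the minimum of 3. Just outside the rule lay 136, 35, 128 and 17 cells with 2 of the genes. At the limit on cTEC genes, 13, 69, 49 and 29 members lay between 5 and 10 of 10000 UMIs, and 16, 34, 35 and 12 cells lay between 10 and 20. The limit on Ccl21a fell in a sparse range, with 2, 7, 16 and 3 members between 25 and 50 of 10000 UMIs and 12, 15, 26 and 9 cells between 50 and 100. Dcn had a UMI in 98.3, 98.8, 97.3 and 99.0% of the members, and Gpm6b, the least often seen, in 69.8, 68.4, 58.6 and 77.8%. The shares of members by number of genes and by gene are not at equal depth. With each cell thinned to 1000 UMIs, Gpm6b had a UMI in 16.4, 21.0, 15.3 and 17.0% of the members.

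These cells expressed epithelial genes together with the matrix genes of the rule. Krt8 stood at 1339, 1419, 1382 and 1131 CPM, Krt14 at 902, 1320, 813 and 834 CPM and Trp63, a transcription factor of basal epithelia, at 228, 276, 288 and 399 CPM. The epithelial adhesion gene Epcam, which the rule required, had a median of 4, 3, 2.5 and 3 UMIs per member, and 10, 66, 41 and 20 further cells met every other part of the rule with no Epcam UMI. Pax1, a transcription factor of the pharyngeal pouches, was present as well, at 179, 287, 200 and 294 CPM. The fibroblast list of 10 genes summed to 48.0, 51.9, 34.5 and 95.5 CPM, highest in CD40KO-RANKL Ab, with the collagen gene Col1a1 at 2.72, 0, 0 and 5.27 CPM. Col3a1, another collagen gene, stood at 7.24, 16.3, 12.6 and 32.8 CPM. Lum, a proteoglycan gene, stood at 19.0, 9.34, 3.29 and 28.1 CPM, at a log2 ratio of 1.52 for CD40KO-RANKL Ab against CD40KO-Control. Rgs5, a gene of the pericyte list, stood at 72.4, 6.57, 106 and 3.52 CPM. Without the members that held UMIs of mature mTEC, tuft cell or cell cycle genes it stood at 10.7, 5.22, 7.60 and 3.93 CPM. The pericyte list summed to 82.4, 10.7, 110 and 9.37 CPM in members. In Ccl21a-high cells, a class defined below, it was higher, at 760, 479, 648 and 160 CPM, so these genes do not mark pericytes alone here. The part of fibroblasts or pericytes in the results was not tested. The summed levels of the endothelial list were 35.3, 28.7, 26.3 and 11.7 CPM and those of the thymocyte list 7.24, 5.88, 13.2 and 9.37 CPM. Doublets were not removed.

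Some members also carried UMIs of mature mTECs or of tuft cells. At least 1 UMI of Aire was found in 19, 2, 29 and 1 members, and at least 3 UMIs of Ubd and Wfdc18, a pair of genes high in mature mTECs, in 25, 18, 48 and 1. At least 3 UMIs of tuft cell genes were found in 1, 8, 6 and 1 members and at least 3 of cell cycle genes in 12, 12, 22 and 13. In all, 37 of 116, 34 of 414, 63 of 256 and 16 of 194 members held UMIs of such other classes, which is 31.9, 8.21, 24.6 and 8.25%. Their median UMI counts of 12631, 11371, 10867 and 10626 lay above those of the other members, at 6291, 6010, 4680 and 8045.5. Because these shares differed between the libraries, some results below are also given without these cells, a choice made after the values were seen. Where no such value stands beside a result, it covers all members, and the part of these cells in it is not given.

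Members were a larger share of the kept cells in each library with blocked RANKL, with deleted Cd40 or with both. The share was 1.14% (exact Clopper-Pearson interval 0.939 to 1.36) in WT-Control, 5.78% (5.25 to 6.34) in WT-RANKL Ab, 2.98% (2.63 to 3.36) in CD40KO-Control and 9.32% (8.10 to 10.6) in CD40KO-RANKL Ab. No interval overlapped another, and the ratios to WT-Control were 2.35 (2.05 to 2.66), 1.39 (1.07 to 1.72) and 3.04 (2.70 to 3.38) on the log2 scale. Without the members that held UMIs of other classes the shares were 0.773, 5.30, 2.25 and 8.55%, in the same order from lowest to highest. That order also held with all cells thinned to 2000 UMIs, at 0.670, 3.425, 1.57 and 4.63%. The libraries hold no count of cells per thymus, so more of these cells and fewer of the others cannot be told apart.

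The share of cTEC-gene cells, which passed the limit on Prss16 and Psmb11, stayed under that on Ccl21a and had fewer than 3 of the rule's genes, was 0.724, 3.001, 3.22 and 6.44%. Set against these cells the members did not increase alike, with 157 members per 100 cTEC-gene cells in WT-Control, 193 in WT-RANKL Ab, 92.4 in CD40KO-Control and 145 in CD40KO-RANKL Ab. The log2 ratios to WT-Control on this scale were 0.30, -0.76 and -0.11. They rest on 74, 215, 277 and 134 cTEC-gene cells, and no direction is read from 0.30 and -0.11. The shares of both classes were thus higher than in WT-Control in the same 3 libraries. Per 100 Ccl21a-high cells, the cells that passed the limit on Ccl21a but met neither of the other criteria, there were 3.55, 13.4, 15.04 and 32.1 members. The plot of shares by condition sets these scales side by side.

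**Figure D1:**
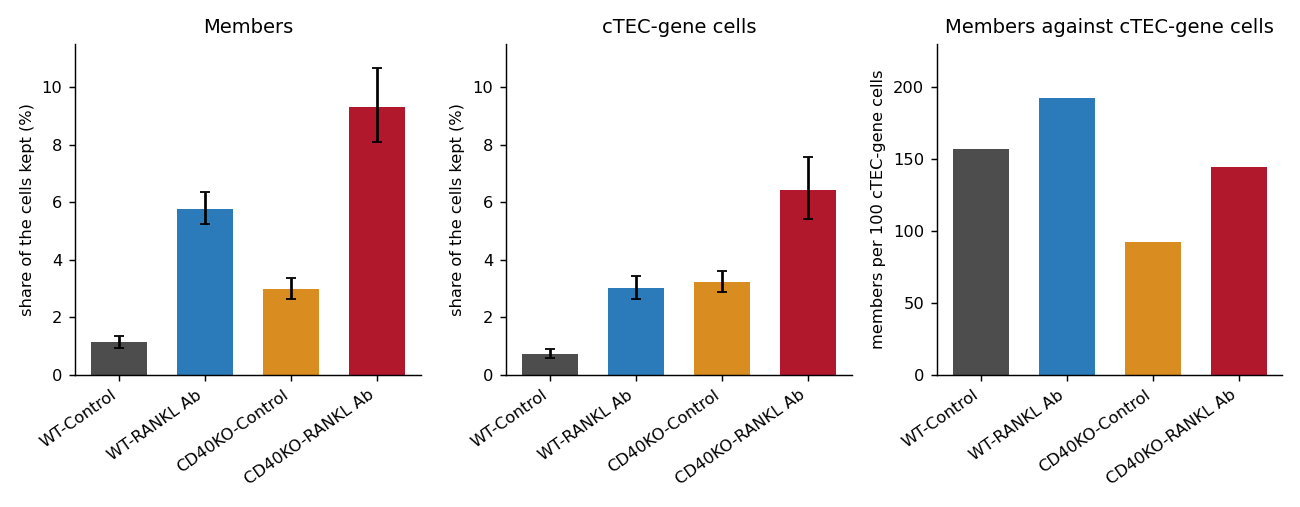
Share of the kept cells that were members (left) or cTEC-gene cells (middle), with exact 95% intervals of counting error, and members per 100 cTEC-gene cells (right), 1 library per condition. The share of members runs from 1.14 to 9.32% and that of cTEC-gene cells from 0.724 to 6.44%, whereas the number of members per 100 cTEC-gene cells lies between 92.4 and 193.

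Cells with at least 3 of the rule's genes also occurred with cTEC genes or with Ccl21a, and the members were 32.2, 50.5, 38.6 and 31.4% of all 360, 819, 664 and 617 such cells. Those with cTEC genes held 29, 124, 142 and 81 cells, and those with Ccl21a held 215, 281, 266 and 342. The members were thus the largest of the 3 groups in WT-RANKL Ab, while cells with Ccl21a were the largest in each of the other 3. With the limit on Ccl21a lifted, the share was 3.22, 9.37, 5.98 and 25.1% of the kept cells.

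Next, the members were set beside the Ccl21a-high and the cTEC-gene cells of their own library, as a description, because the rule fixed part of this difference. Both classes had fewer than 3 of the rule's genes. Whether the differences hold against the other cells with at least 3 of them is not given here. Of 13129 genes, 159 were at least 2-fold higher and 171 at least 2-fold lower in members than in Ccl21a-high cells in all 4 libraries, on the log2 scale with 10 CPM added that is used throughout. Among the most different apart from the rule's genes were Mgll, a lipase that breaks down monoacylglycerols, at 2.99 to 4.33 over the libraries, and Il33, an alarmin cytokine, at 2.75 to 3.46. Igfbp7, a secreted IGF-binding protein, was 2.48 to 4.72 higher, and Aldh1a1, which makes retinoic acid, 2.42 to 3.12 higher. The stem cell factor gene Kitl was 2.25 to 2.60 higher and the chemokine gene Cxcl12 2.13 to 2.87 higher. Among genes the rule did not use, Pthlh, which encodes parathyroid hormone-related protein, was lower in members at -4.14 to -3.23, and Cxcl14, another chemokine gene, at -3.71 to -3.04.

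Against cTEC-gene cells, 311 of 11157 genes were at least 2-fold higher in members in all 4 libraries and 285 at least 2-fold lower. Higher were Igfbp4 at 4.04 to 4.76, the calcification inhibitor Mgp at 3.67 to 4.58, Ly6a, which encodes the surface protein Sca-1, at 3.34 to 4.31 and Id3, an inhibitor of helix-loop-helix transcription factors and a target of BMP signalling, at 3.11 to 3.96. Lower were Tbata at -6.16 to -5.27 and the chemokine gene Ccl25 at -6.62 to -5.03, both associated with cTECs. Cd83, which stabilises MHC class II at the cell surface, stood at -4.83 to -4.12 and the Notch ligand gene Dll4 at -3.41 to -2.92. Members therefore differed from both classes in genes outside the rule, and their Cxcl12 level of 542, 771, 801 and 875 CPM lay between the 68.2, 96.6, 123 and 193 CPM of Ccl21a-high cells and the 1589, 2267, 2648 and 2427 CPM of cTEC-gene cells.

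**Figure D2:**
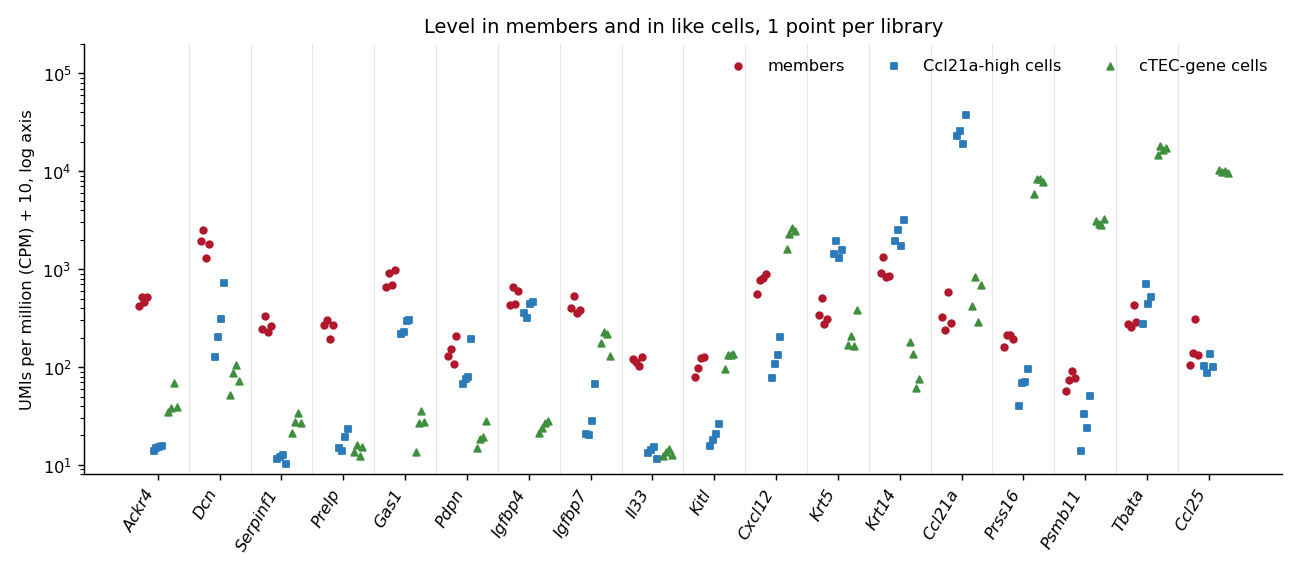
Level in CPM with 10 added, on a log axis, of 18 genes in members, Ccl21a-high cells and cTEC-gene cells, with 1 point per library in the order WT-Control, WT-RANKL Ab, CD40KO-Control and CD40KO-RANKL Ab. Il33 separates the members, at 92.6 to 117 CPM, from both other classes, which stay at or below 5.30 CPM.

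Pdpn and genes of the cortex were found in part of the members. After each cell had been thinned to 1000 UMIs, Pdpn had a UMI in 10.3, 13.5, 11.4 and 18.6% of the members, in 6.31, 6.01, 6.82 and 19.1% of Ccl21a-high cells and in 0, 0.208, 0 and 2.04% of tuft-gene cells, a class defined by at least 3 of 6 tuft cell genes. Psmb11, the thymoproteasome subunit, had a UMI in 6.90, 6.76, 7.45 and 6.70% of the members and in 0.530, 0.416, 0.948 and 2.04% of tuft-gene cells. Prss16, a thymus-specific protease, had one in 12.9, 17.6, 18.8 and 20.1% of the members and in 0.796, 4.57, 1.42 and 10.2% of tuft-gene cells. The rule limited Psmb11 and Prss16 in members, and tuft-gene cells were held to the same limit, so these shares are a description. In CD40KO-RANKL Ab the tuft-gene cells numbered 49. Median UMI counts before thinning were 6998, 6170, 5679 and 6773 in tuft-gene cells, against 6682, 6251.5, 5309.5 and 8176 in members. Ccl21a, which the rule limited, had a UMI in 18.1, 14.3, 18.4 and 19.1% of the members and in 23.9, 18.3, 12.8 and 16.3% of tuft-gene cells, and no direction is read from these shares.

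Within the members, 5 pairs of libraries were compared, namely the antibody against control IgG in each genotype, CD40KO against WT under each treatment, and CD40KO-RANKL Ab against WT-Control. A gene was measured in a pair when both libraries together held at least 50 of its UMIs, and few of the measured genes passed 2-fold. In WT-RANKL Ab against WT-Control, 42 of 7814 genes were at least 2-fold higher and 169 lower, which is 0.537 and 2.16%. In CD40KO-Control against WT-Control, 200 of 6981 were higher and 118 lower, which is 2.86 and 1.69%, but with TMM factors in place of total UMIs the split was 73 higher and 172 lower, and the median of all genes moved from 0.16 to -0.01. In CD40KO-RANKL Ab against WT-Control, 89 of 6581 were higher and 189 lower, which is 1.35 and 2.87%. The antibody in CD40KO mice gave 49 of 7589 higher and 187 lower, which is 0.646 and 2.46%, and CD40KO-RANKL Ab against WT-RANKL Ab gave 34 of 8223 higher and 78 lower, which is 0.413 and 0.949%. Without the members that held UMIs of other classes, 51 of 6711 genes were higher and 42 lower in WT-RANKL Ab against WT-Control. In CD40KO-Control against WT-Control, 246 of 4670 were then higher and 56 lower. For CD40KO-RANKL Ab, 88 of 5410 were higher and 49 lower against WT-Control, and 42 of 6410 and 51 against CD40KO-Control. Against WT-RANKL Ab, 36 of 7716 were higher and 26 lower. The 3 ratios to WT-Control share that library, so they are given side by side only. Ratios and counts by list below use total UMIs. The TMM factors were 0.936 in WT-Control and 1.08 in CD40KO-Control, so they lower each ratio of CD40KO-Control to WT-Control.

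The rule's genes and Pdpn differed by less than 2-fold between the libraries in the 5 pairs. The values of the former are a description, since they were used to choose the cells. Ackr4 stood at 413, 507, 447 and 516 CPM, Dcn at 1934, 2519, 1295 and 1785 CPM and Gas1 at 642, 896, 678 and 981 CPM. Pdpn stood at 119 (exact Poisson interval 99.97 to 142), 142 (128 to 156), 98.7 (84.8 to 114) and 197 (177 to 220) CPM, highest in CD40KO-RANKL Ab, where its log2 ratio to WT-Control was 0.68. Krt5, which with Krt8 marks immature TECs, stood at 328, 493, 268 and 299 CPM, and Foxn1, the master transcription factor of TECs, at 43.4, 39.1, 43.3 and 31.6 CPM.

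Of the cTEC genes, 8 or 9 of 11 were measured in each pair. Psmb11 stood at 47.1, 63.7, 81.7 and 68.0 CPM, Prss16 at 152, 201, 202 and 185 CPM and Tbata at 266, 244, 419 and 276 CPM. Ccl25, a chemokine for thymocyte progenitors, stood at 95.9, 128, 301 and 121 CPM, and the endocytic receptor gene Ly75 at 59.7, 89.3, 145 and 90.2 CPM. On total UMIs these 2 were the cTEC genes at least 2-fold higher in CD40KO-Control than in WT-Control, and none was in CD40KO-RANKL Ab. TMM factors lower both ratios, of which that of Ly75 was nearer to 2-fold, and the count with them is not given. Prss16 and Psmb11 were limited by the rule, so their values are a description.

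Genes of the AP-1 family, transcription factors of the Fos, Jun and Atf kind that respond rapidly to growth factors and stress, were higher in members of the libraries with the antibody, without CD40 or with both. Fos stood at 363, 706, 833 and 1216 CPM, with exact Poisson intervals of 328 to 400, 676 to 737, 791 to 875 and 1164 to 1269. Its log2 ratios to WT-Control were 0.94, 1.18 and 1.72. Jun stood at 552, 729, 927 and 1397 CPM and Junb at 488, 557, 715 and 1097 CPM. All 3 genes were lowest in WT-Control and highest in CD40KO-RANKL Ab, with no overlap of counting intervals for Fos and Jun.

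Atf3, a stress-induced transcription factor on the same list, stood at 38.9 CPM in WT-Control and 149, 161 and 166 CPM in the other libraries. Its log2 ratios to WT-Control were 1.70, 1.80 and 1.85, and the counting intervals of these 3 libraries overlapped. Fosb stood at 46.2, 72.0, 130 and 165 CPM and passed 2-fold in both comparisons of CD40KO with WT, at 1.32 under control IgG and 1.10 under the antibody. Jund, which many cells express without stimulation, stood at 484, 778, 711 and 717 CPM. Of the 6 measured AP-1 family genes, 1, 3 and 5 were at least 2-fold above WT-Control in WT-RANKL Ab, CD40KO-Control and CD40KO-RANKL Ab. Their medians were 0.61, 0.96 and 1.48. These values use total UMIs. TMM factors lower the ratios of CD40KO-Control, where Fos was the nearest to 2-fold of the 3 genes counted. Without the members that held UMIs of other classes the counts were 1, 3 and 3 and the medians 0.45, 0.91 and 1.12. Junb then stood at 558, 549, 847 and 1065 CPM, with a log2 ratio of WT-RANKL Ab to WT-Control of -0.02. Without the barcodes shared by the CD40KO libraries, the Fos ratio in CD40KO-RANKL Ab was 1.54 and Fosb fell just short of 2-fold under the antibody, at 0.998.

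Other immediate early genes went the same way in part. Egr1, a zinc finger transcription factor, stood at 128, 228, 426 and 441 CPM, Zfp36, which destabilises cytokine mRNAs, at 99.6, 162, 247 and 343 CPM, and Socs3, an inhibitor of cytokine signalling, at 80.6, 129, 168 and 277 CPM. Of 23 to 25 measured immediate early genes, 1, 6 and 8 were at least 2-fold higher than in WT-Control in the 3 other libraries and 1 was lower in CD40KO-RANKL Ab, and their medians were 0.50, 0.52 and 0.77. Heat shock genes, which mark another stress response, had medians of 0.25, 0.34 and 0.02 over 10 genes, with Hspa1a at 364, 514, 663 and 704 CPM. The mitochondrial share had medians of 2.34, 3.03, 2.71 and 2.84% of UMIs in members. The part of cell isolation in these values was not tested.

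The members were heterogeneous in AP-1 genes. At 1000 UMIs per cell the summed UMIs of the AP-1 family had medians of 1, 1, 2 and 3 and means of 1.95, 3.14, 3.58 and 4.69, while 37.9, 29.5, 29.8 and 24.7% of the members had none. The 90th percentile of the members lay at 6.5, 9, 10 and 12 UMIs. In Ccl21a-high cells of the same libraries the means were 3.04, 2.63, 3.71 and 4.73, so that WT-RANKL Ab lay below WT-Control there and above it in members. The AP-1 family medians in CD40KO-RANKL Ab against WT-Control were 1.48 in members, 0.74 in Ccl21a-high cells, 1.19 in cTEC-gene cells and 0.91 in tuft-gene cells. In WT-RANKL Ab against WT-Control they were 0.61, -0.28, 0.43 and 0.72, and a difference between the classes was not tested. Summed over the list, the AP-1 family stood at 1975, 2998, 3491 and 4763 CPM in members. Among other cells with at least 3 of the rule's genes, those with cTEC genes stood at 2434, 1513, 2536 and 2836 CPM. Those with Ccl21a stood at 2252, 2261, 2768 and 4294 CPM, so neither class had the rise of members in WT-RANKL Ab.

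**Figure D3:**
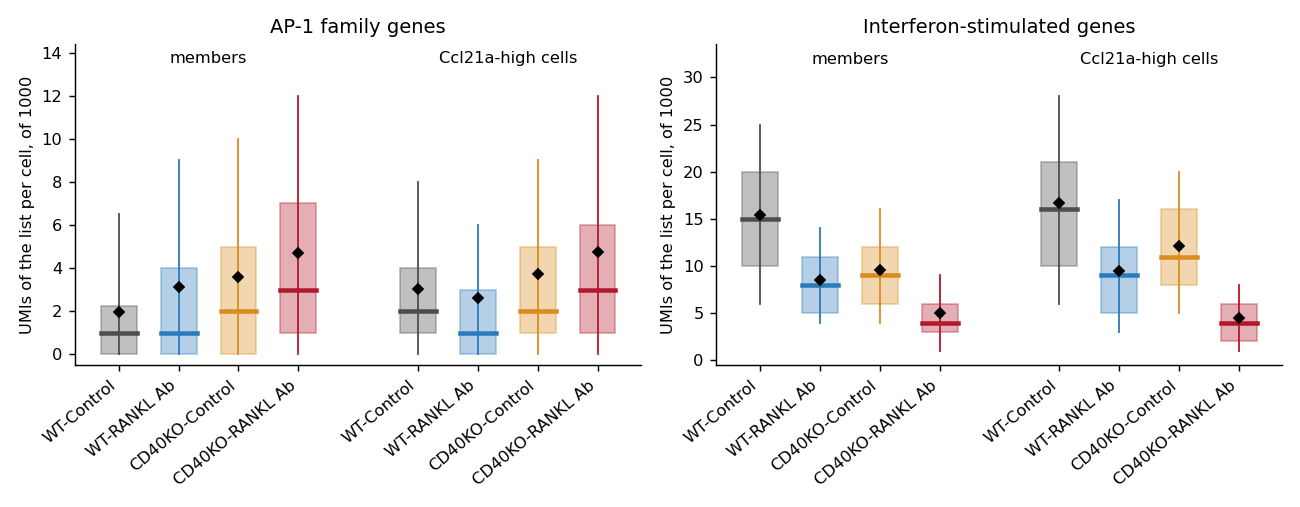
Summed UMIs per cell of the AP-1 family (left) and of interferon-stimulated genes (right) after thinning each cell to 1000 UMIs, for members and Ccl21a-high cells of each library. Thick lines are medians, boxes run from the 25th to the 75th and lines from the 10th to the 90th percentile of cells, and diamonds are means, which run in members from 1.95 to 4.69 for the AP-1 family and from 15.4 down to 5.01 for interferon-stimulated genes.

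Part of the interferon-stimulated genes were at least 2-fold lower than in WT-Control, with the highest count in CD40KO-RANKL Ab and the lowest in CD40KO-Control. Isg15, a ubiquitin-like modifier, stood at 1211 CPM in WT-Control, 420 in WT-RANKL Ab, 464 in CD40KO-Control and 185 in CD40KO-RANKL Ab, with log2 ratios to WT-Control of -1.51, -1.36 and -2.65. Ifi27l2a, an interferon-induced protein of mitochondria, stood at 4712, 1728, 1679 and 516 CPM. Bst2, which tethers budding viruses to the cell, stood at 509, 265, 309 and 92.0 CPM, and Irf7, a transcription factor that amplifies the interferon response, at 124, 54.0, 87.7 and 16.4 CPM. For each of these 4 genes WT-Control was highest and CD40KO-RANKL Ab lowest.

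Of the 47 interferon-stimulated genes on the list, 10 of 40 measured were at least 2-fold lower in WT-RANKL Ab, 4 of 41 in CD40KO-Control and 20 of 38 in CD40KO-RANKL Ab than in WT-Control, and none was 2-fold higher. In CD40KO-Control 14 of the 41 had a log2 ratio above 0. The antibody in CD40KO mice gave 19 of 38 lower. The medians of the list were -0.42, -0.19 and -1.12 against WT-Control, -0.98 for the antibody in CD40KO mice and -0.56 for CD40KO-RANKL Ab against WT-RANKL Ab. Without the members that held UMIs of other classes, 11, 3, 20 and 22 were lower in the first 4 of these pairs. At 1000 UMIs per cell the list summed to a median of 15, 8, 9 and 4 UMIs per member, and 32.0% of the members of CD40KO-RANKL Ab had a UMI of Ifi27l2a against 93.97% in WT-Control.

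Ly6a, long used as a surface marker of stem and progenitor cells and itself inducible by interferon, stood at 2241, 1258, 1324 and 277 CPM in members. Its log2 ratio to WT-Control was -0.83 in WT-RANKL Ab and -2.97 in CD40KO-RANKL Ab. The level in Ccl21a-high cells was 1689.5, 1124, 1909 and 354 CPM, so Ly6a was lowest in CD40KO-RANKL Ab there as well. The same held for the interferon-stimulated list, whose median in CD40KO-RANKL Ab against WT-Control was -1.34 in Ccl21a-high cells, -1.25 in tuft-gene cells and -0.40 in cTEC-gene cells.

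Genes of MHC class I, which presents peptides to CD8 T cells, were partly lower too. B2m, the light chain, stood at 6871, 3251, 4777 and 1742 CPM and H2-D1, a classical heavy chain, at 2295, 1159, 1240 and 941 CPM. H2-K1, the other classical heavy chain of this strain, stood at 2613, 2502, 2540 and 1262 CPM and was at least 2-fold below WT-Control in CD40KO-RANKL Ab alone. Reads of the class I heavy chains can be shared among their copies, so the split between them is uncertain. Of 6 measured class I genes, 2, 1 and 4 were at least 2-fold lower than in WT-Control, while Tap2, the peptide transporter subunit, stood at 92.3, 92.7, 91.0 and 85.5 CPM.

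Promoters are shown for a few interferon-stimulated and class I genes that were lower, and for Zfp36, which was higher in the CD40KO libraries. Only promoters that hold a match were shown, so its presence in each of them is not a result. In each, 150 bases before the start of the gene are given 5′ to 3′ on the strand of the gene from RefSeq on GRCm38.p6, and capitals mark matches to the interferon-stimulated response element (ISRE), searched as GAAANNGAAA on both strands, or, for Zfp36, to the serum response element. Overlapping matches run together in 1 stretch of capitals.
Isg15, chr4:156200819-156200968, minus strand: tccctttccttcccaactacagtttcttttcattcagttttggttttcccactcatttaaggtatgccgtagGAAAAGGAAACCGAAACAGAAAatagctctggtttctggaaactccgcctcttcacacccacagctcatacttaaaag
Ifit1, chr19:34640739-34640888, plus strand: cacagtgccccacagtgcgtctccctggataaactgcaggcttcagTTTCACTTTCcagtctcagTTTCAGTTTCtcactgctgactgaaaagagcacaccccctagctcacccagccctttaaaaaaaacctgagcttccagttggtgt
Ifit3, chr19:34583379-34583528, plus strand: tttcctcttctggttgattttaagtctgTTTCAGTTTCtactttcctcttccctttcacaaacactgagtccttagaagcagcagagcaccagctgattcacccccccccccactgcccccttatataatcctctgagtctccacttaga
Bst2, chr8:71537473-71537622, minus strand: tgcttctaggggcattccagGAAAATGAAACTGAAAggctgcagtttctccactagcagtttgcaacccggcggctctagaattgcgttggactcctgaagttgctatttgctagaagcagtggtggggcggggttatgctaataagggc
B2m, chr2:122147537-122147686, plus strand: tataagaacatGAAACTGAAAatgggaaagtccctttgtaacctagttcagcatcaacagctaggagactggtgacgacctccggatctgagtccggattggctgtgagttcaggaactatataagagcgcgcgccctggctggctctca
Zfp36, chr7:28379229-28379378, minus strand: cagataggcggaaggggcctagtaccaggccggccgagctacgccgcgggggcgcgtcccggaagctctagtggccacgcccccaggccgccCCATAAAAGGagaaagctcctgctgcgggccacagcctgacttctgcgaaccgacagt
Isg15 held 3 ISRE matches within 57 to 78 bases before its start, Ifit1 and Bst2 held 2 each, and Ifit3 and B2m held 1. Beside these sequences stand the levels of Ifit1, at 312, 125, 155 and 72.1 CPM, and of Ifit3, at 237, 77.8, 188 and 37.5 CPM, both of which encode proteins that bind foreign RNA.

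Over promoters of 300 bases, from 250 before to 50 after the start, the ISRE letters were found in 18 of 35 interferon-stimulated genes with a sequence, which is 51.4%, against 1079 of 27025 genes in all, which is 3.99%. They were found in 2 of 5 class I genes, 1 of 7 AP-1 family genes and 1 of 23 other immediate early genes, and in none of 5 rule genes. Within this window the serum response element was found in 3 of 23 immediate early genes, in none of 7 AP-1 family genes and in 1.81% of all genes. Sites farther from the start were not searched, so a gene without a match can still have one there. A match of letters is a description of the sequence, and binding was not measured.

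**Figure D4:**
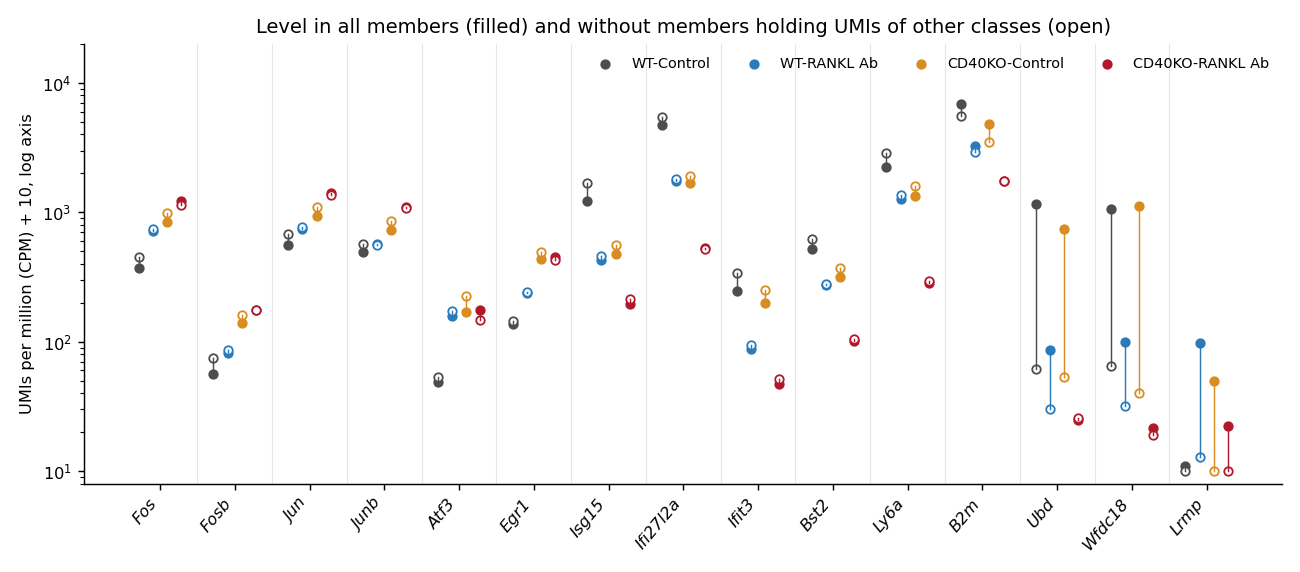
Level in CPM with 10 added, on a log axis, of 15 genes in each library, over all members (filled) and without the members that held UMIs of Aire, of Ubd and Wfdc18, of tuft cell or of cell cycle genes (open). Isg15 in WT-Control moves from 1211 to 1664 CPM, whereas Ubd in WT-Control moves from 1150 to 51.9 CPM and Lrmp in WT-RANKL Ab from 87.9 to 2.81 CPM.

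Genes of mature mTECs differed most between the libraries with and without the antibody, and their UMIs came from few cells. Ubd stood at 1150, 76.8, 738 and 14.6 CPM, Wfdc18 at 1053, 88.9, 1114 and 11.7 CPM and Reg3g, an antimicrobial lectin, at 1014, 123, 214 and 3.52 CPM. In WT-Control, 5 members held 62.8% of the UMIs of Ubd, 86.1% of those of Wfdc18 and 97.1% of those of Reg3g. Aire stood at 62.5, 3.11, 80.0 and 0.586 CPM and Fezf2, a second regulator of tissue antigens, at 115, 12.8, 127 and 0.586 CPM. Without the members that held UMIs of other classes, Ubd stood at 51.9, 20.1, 43.7 and 15.7 CPM and Fezf2 at 7.16, 3.22, 2.85 and 0.654 CPM. Cell cycle genes were at least 2-fold below WT-Control for 3 of 12 measured in WT-RANKL Ab, 4 of 11 in CD40KO-Control and 9 of 11 in CD40KO-RANKL Ab, with medians of -0.85, -0.74 and -2.11. Members that held at least 3 UMIs of this list were 12 of 116, 12 of 414, 22 of 256 and 13 of 194. Leaving out the members with UMIs of other classes removed cells by these genes. Too few genes of the list then stayed measured in CD40KO-RANKL Ab against WT-Control to compare.

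The gene for RANK was lower in members than in Ccl21a-high cells in each library. Tnfrsf11a stood at 23.5, 1.38, 25.2 and 1.76 CPM over all members, against 79.3, 81.1, 64.4 and 57.8 CPM in Ccl21a-high cells. Without the members that held UMIs of other classes it stood at 3.58, 0, 1.90 and 1.31 CPM. Ccl21a-high cells with such UMIs were not left out, so these last values have no like counterpart there. Cd40 stood at 34.4, 2.77, 2.19 and 1.76 CPM in members. Lrmp, high in tuft cells, stood at 0.905, 87.9, 39.5 and 12.3 CPM and led the genes that were higher in WT-RANKL Ab, where 8 members held at least 3 UMIs of tuft cell genes.

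The antibody pairs in WT and in CD40KO mice share no library, and 81 genes were at least 2-fold lower in both, which is 62.3% of the 130 lower in WT mice and 52.9% of the 153 lower in CD40KO mice among the 7272 genes measured in both pairs. Without the members that held UMIs of other classes, 11 of 6164 genes were lower in both, which is 28.9% of 38 and 23.4% of 47. These were Ifit3, Ifit3b, Ifi27l2a, Zbp1, Irf7, Isg15, Ifit1, Ifi44, Bst2, Ly6a and Ubd, of which Ubd had served to remove cells, and Ifi44, Bst2 and Ly6a were not among the 81. A single gene was at least 2-fold higher in both, Igfbp3, which binds IGFs, at 74.2, 188, 74.0 and 170 CPM. Its log2 ratios were 1.23 and 1.10, and without the members that held UMIs of other classes 0.99 and 0.86.

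**Figure D5:**
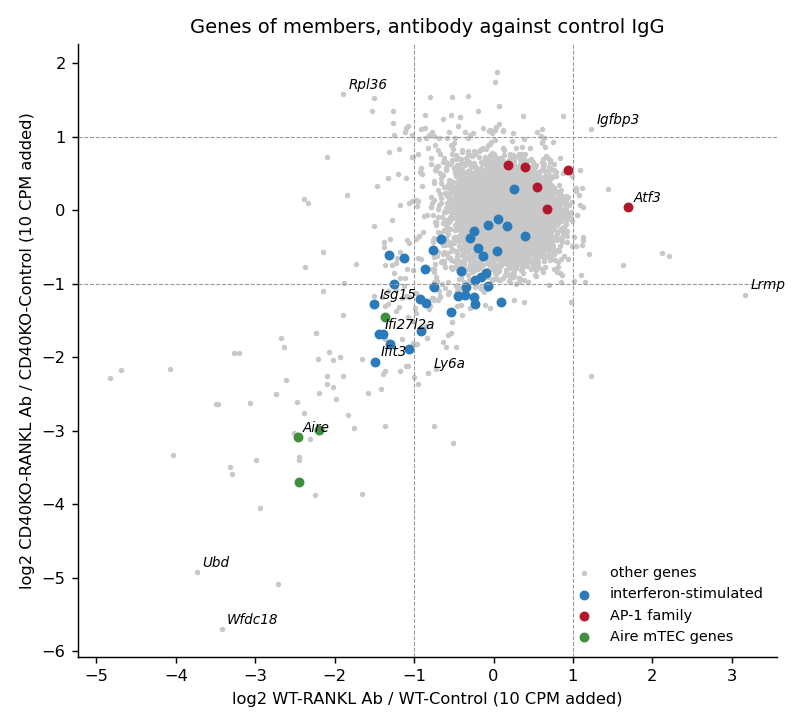
Log2 ratio of each gene in members for the antibody against control IgG in WT mice (horizontal) and in CD40KO mice (vertical), with 10 CPM added and dashed lines at 2-fold. Of the interferon-stimulated genes measured in both pairs, all but Irf1 lie below 0 on the vertical axis, Wfdc18 lies lowest of all genes there, and Igfbp3 alone lies beyond 2-fold in the upper right.

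The pairs of CD40KO against WT, under control IgG and under the antibody, share no library either. In both, Fosb and Zfp36 were at least 2-fold higher, which is 1.08% of 185 and 6.06% of 33 higher genes, and 17 genes were lower, which is 22.4% of 76 and 28.8% of 59 among 6753 genes. Without the barcodes that the CD40KO libraries share, Fosb and Zfp36 reached 0.998 and 0.91 under the antibody. Without the members that held UMIs of other classes, Fosb was higher in both, at 1.12 and 1.03, and Ifi27l2a, Ogn, Isg15 and Zbp1 lower. Ogn, a small leucine-rich proteoglycan, stood at 45.3, 39.1, 10.4 and 8.79 CPM, and the related genes Fmod and Bgn at 140, 165, 61.9 and 111 CPM and at 86.0, 64.7, 26.3 and 38.7 CPM.

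Matrix genes as a whole moved little. Of 27 measured in CD40KO-Control against WT-Control, Ogn, Fmod and Bgn were at least 2-fold lower and Smoc2, a matricellular protein, higher, at 43.4, 77.9, 99.8 and 101 CPM. The list's medians against WT-Control were 0.34, 0.14 and 0.18. Sparc, a collagen-binding glycoprotein, stood at 678, 1056, 643 and 794 CPM and Mgp at 1838, 1791, 1242 and 1354 CPM, each with the groups apart by less than 2-fold.

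In the IGF axis, Igfbp5 stood at 304, 665, 869 and 467 CPM, at least 2-fold above WT-Control in WT-RANKL Ab and CD40KO-Control at log2 ratios of 1.10 and 1.48, but not in CD40KO-RANKL Ab at 0.60. Igf1, the growth factor itself, stood at 142, 30.8, 60.8 and 16.4 CPM over all members but at 28.6, 32.1, 25.6 and 17.0 CPM without those that held UMIs of other classes. Of the chemokines and thymopoietic factors, 3 of 11 measured were at least 2-fold lower than in WT-Control in WT-RANKL Ab, none of 11 in CD40KO-Control and 3 of 10 in CD40KO-RANKL Ab, and Ccl25 alone was higher, in CD40KO-Control. The lower genes were the chemokines Ccl5, Ccl19 and Ccl11. Ccl5 stood at 164, 20.4, 86.0 and 1.76 CPM, and without the members that held UMIs of other classes at 17.9, 5.22, 49.4 and 0.654 CPM. The cytokine genes Il7, Kitl and Il33 differed by less than 2-fold, with Il7 at 169, 184, 204 and 190 CPM. Of the BMP and Wnt genes, Sfrp1, an inhibitor of Wnt, was 2-fold higher in CD40KO-Control, at 70.6, 145, 186 and 114 CPM. Wnt4, which supports Foxn1 expression in TECs, stood at 216, 181, 114 and 183 CPM, and Fst, which binds activin, at 162, 107, 86.0 and 108 CPM.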

How the data were processed

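The authors trimmed the reads with Fastp and counted UMIs on mm10 with Cell Ranger, version 5.0.1 per the file headers and 5.1 in the submitters' processing notes. The deposited values are raw UMI counts per gene and barcode, without normalization, and whether doublets had been removed is not given in the sources used here.

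Cells under 200 genes or over 25% mitochondrial UMIs were left out. Member UMIs were summed per library, over all gene identifiers of a symbol, and scaled to 1000000 (CPM). A gene was compared between a pair of libraries when the pair held 50 or more of its UMIs, with 10 CPM added, and called at 2-fold. Intervals at the 95% level were Clopper-Pearson for shares and Poisson for CPM. The scripts were tested on simulated data. Cells were thinned without replacement. The software was Python 3.11.15 with scipy 1.17.1, pandas 2.3.3 and numpy 2.4.6, and edgeR 4.0.16 for TMM factors.

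The members, the gene lists and the comparisons were chosen with earlier results of these data known. Named genes were those of the rule and of the paper, up to 6 per list by change and 3 by level, 8 in each direction per pair, up to 15 shared by pairs without a common library and the 20 most different from like cells. A few genes outside these were chosen after their values were seen. Results for a few genes are not reported here.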

Additional observations from a re-analysis of the deposited data

Results flagged for a closer look

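Some genes were at least 2-fold higher in members in one comparison and at least 2-fold lower in the other of the same kind. These differences were not tested, since each condition was 1 library. Values are log2 ratios with 10 CPM added.

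For the antibody against control IgG, in WT mice and then in CD40KO mice, ribosomal protein genes and small mitochondrial genes were lower and then higher. Rpl36 had ratios of -1.90 and 1.57, Rps29 of -1.53 and 1.35, Rps21 of -1.27 and 1.35, Rpl37 of -1.26 and 1.18, Rpl38 of -1.08 and 1.14, and Rplp2 of -1.02 and 1.02. Bola2 had ratios of -1.26 and 1.03, and the respiratory chain genes Uqcr11 and Ndufa3 of -1.10 and 1.12 and of -1.11 and 1.07. Lrmp, high in tuft cells, had ratios of 3.17 and -1.15, and Resp18, a gene of neuroendocrine granules, of 1.23 and -2.26.

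For CD40KO against WT, under control IgG and then under the antibody, Rpl36 had ratios of -2.23 and 1.24, Rps29 of -1.53 and 1.34, Rps21 of -1.31 and 1.30, Rpl37 of -1.04 and 1.41, Ndufa3 of -1.08 and 1.10 and Eif3j1 of -1.08 and 1.03. Genes high in tuft cells went the other way, with ratios of 2.18 and -2.13 for Lrmp, 1.64 and -1.20 for Chil1, 1.31 and -1.41 for Gm9493 and 1.20 and -1.02 for Dclk1. Sncg had ratios of 1.05 and -1.60. Rpl36 stood at 1510, 405, 391 and 870 CPM in tuft-gene cells, the same order of libraries as in members.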

How the results depend on the processing

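No paired analysis was possible because each condition had 1 library. Of the share ratios under other settings, 48 moved by less than their counting interval, 10 by more and 2 changed sign; of the counts of genes, 89 stayed within 1.5 times and 31 did not. The cause was not tested. The settings that leave out shared barcodes or other classes' UMIs, or divide by cTEC-gene cells, were chosen after seeing the data.

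The log2 share ratios to WT-Control for WT-RANKL Ab, CD40KO-Control and CD40KO-RANKL Ab were 1.35, 0.86 and 2.04 with 2 markers required, and per cTEC-gene cell 0.30, -0.76 and -0.11. For the first 2 they were 1.54 and 0.89 with no limit on Ccl21a and 1.92 and 2.08 per Ccl21a-high cell. Without other classes' UMIs they were 2.78 in WT-RANKL Ab and 3.47 in CD40KO-RANKL Ab.

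Counts of genes past 2-fold follow. For WT-RANKL Ab against WT-Control, 227 were higher with 1 CPM added, 11 higher and 61 lower at 200 UMIs, 358 lower at 10 UMIs, 103 lower with 4 markers, 77 lower in members up to 20000 UMIs and 42 lower without other classes' UMIs. For CD40KO-Control against WT-Control, 73 were higher with TMM factors, 525 higher with 1 CPM added, 63 higher and 45 lower at 200 UMIs, 209 lower at 10 UMIs, 75 lower up to 20000 UMIs and 56 lower without other classes' UMIs. For CD40KO-RANKL Ab against WT-Control, 238 were higher with 1 CPM added, 39 higher and 58 lower at 200 UMIs, 489 lower at 10 UMIs, 123 lower with 4 markers, 96 lower up to 20000 UMIs and 49 lower without other classes' UMIs. For CD40KO-RANKL Ab against CD40KO-Control, 92 were higher and 316 lower with 1 CPM added, 50 lower at 200 UMIs, 365 lower at 10 UMIs and 51 lower without other classes' UMIs. Against WT-RANKL Ab, 94 were higher and 136 lower with 1 CPM added, 44 lower by the mean of each cell's CPM, 23 lower at 200 UMIs and 26 lower without other classes' UMIs.

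The AP-1 family median in CD40KO-RANKL Ab against WT-Control was 1.32 at 10 UMIs, 1.31 by the mean of each cell's CPM, 1.27 up to 20000 UMIs and 1.12 without other classes' UMIs. The cell cycle median was -3.58 with 1 CPM added and, without other classes' UMIs, which removed cells by these genes and left 1 measured gene, 0.38 against WT-Control, 0.25 against CD40KO-Control and 0.63 against WT-RANKL Ab.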

Other observations

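Contractile genes were well detected in members and differed by less than 2-fold in every pair, over 8 measured genes. Tagln, which binds actin, stood at 730, 697, 735 and 987 CPM in WT-Control, WT-RANKL Ab, CD40KO-Control and CD40KO-RANKL Ab, and Acta2, smooth muscle actin, at 342, 341, 365 and 509 CPM. Complement genes were lower in part, with C3 at 110, 39.4, 67.4 and 60.3 CPM. Of 9 or 10 measured MHC class II genes, 1, 0 and 1 were at least 2-fold lower than in WT-Control in WT-RANKL Ab, CD40KO-Control and CD40KO-RANKL Ab, and the list summed to 34129, 30620, 32191 and 25397 CPM in members.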
